A study of Mus musculus with 8 samples.

Results

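Robo4, Unc5b, Efnb2 and Ephb4 encode 4 guidance molecules of blood vessels, and their rows were taken by symbol from a deposited matrix of 28692 gene symbols. They were described in endothelial cells of MT-ret melanoma, a mouse melanoma named for a ret oncogene transgene under the metallothionein promoter. Tumors grew from fragments on the flank, in 10 mice of strain C57BL/6N. Fluorescence-activated sorting separated blood vessel endothelium (BEC) from lymphatic endothelium (LEC), with 10000 cells of each stated in the labels. Both groups carried the tumor and neither had a further treatment in the labels, which give no age, sex, tumor stage or non-tumor control. Single-cell libraries were made with a 3′ droplet kit, which tags every RNA molecule it captures so that molecules (UMIs, unique molecular identifiers) can be counted.

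The labels list 4 libraries per sort, but the column names give the sort alone, so each sort was 1 sample of pooled mice. No test between sorts or between groups of cells was possible. In the matrix the BEC sort held 3228 cells and 71304111 UMIs, with a median of 19416 UMIs per cell, and the LEC sort 4407 cells and 59273049 UMIs, with a median of 11000. A level is given as CPM, counts per 1000000 UMIs of the cells summed. Its 95% interval is an exact Poisson interval, and that of a ratio is an exact conditional binomial interval. Both cover counting error only, and spread between cells, mice or libraries is not in them. A total of 34 cell barcodes occurred in both sorts (68 of 7635 cells); leaving these cells out kept each ratio of a member within its counting interval.

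Cells were gated by marker genes, with none of the 4 genes among the markers. A cell passed a type gate when it had at least 3 markers of that type and at least 2 times the marker share of any other type, after each cell was thinned to 5000 UMIs. In the BEC sort 3146 cells were BEC-gated (97.5%), and in the LEC sort 3753 cells were LEC-gated (85.2%), 82 were BEC-gated and 168 were melanocytic-gated. The 9 BEC markers summed to 17354 CPM in BEC-gated cells of the BEC sort and 1093 CPM in LEC-gated cells of the LEC sort. The 8 LEC markers summed to 76.3 and 34115 CPM in the same cells, and the 5 pan-endothelial markers to 5333 and 2509 CPM. All 22 of these markers were above 0 in both sets of cells. The 7 melanocytic, 9 stromal and 6 leukocyte markers, with none at 0, summed to 24.5, 47.9 and 18.6 CPM in the BEC-gated and 153, 193 and 15.5 CPM in the LEC-gated cells. Their part in the values below was not tested.

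Guidance receptors first described on growing nerve fibers also act in vessels. Robo4 is a Roundabout receptor found mainly in endothelium and is known for keeping vessels from leaking and sprouting. Unc5b is a netrin receptor of endothelial tip cells and arteries, which can also bind Robo4. Efnb2 (ephrin-B2) is a membrane-bound ligand and the classical mark of arteries, while its receptor Ephb4 is a tyrosine kinase and the classical mark of veins. In lymphatic vessels, signalling between Efnb2 and Ephb4 is known to shape collecting vessels and valves.

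In GENCODE M21 on GRCm38 all 4 are protein-coding genes. Robo4 lies on chromosome 9 (37401897 to 37415115, plus strand), Unc5b on chromosome 10 (60762593 to 60831581, minus strand), Efnb2 on chromosome 8 (8617434 to 8661242, minus strand) and Ephb4 on chromosome 5 (137350109 to 137378669, plus strand). Ephb4 overlaps Zan on the other strand by 33 bases, and Zan had 127 UMIs in the whole matrix against 2065 in BEC and 2966 in LEC for Ephb4. Unconfirmed gene models of the same strand overlap Efnb2 (3 of them) and Unc5b (1), and no row of the matrix carries their names.

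The 250 bases before the RefSeq start site (RefSeq on GRCm38.p6, all 4 genes matched) are shown because Robo4, the member more than 2-fold higher in BEC, has a window of lower GC and CpG content than the other 3. Capitals mark GGAA or its reverse TTCC, the core bound by ETS factors. The windows of the other 3 end at their GENCODE starts, but that of Robo4 runs past its GENCODE start at 37401897. Its 3 marked cores lie beyond that start, so the windows are not placed alike. The windows are chr9:37401722-37401971 (plus strand), chr10:60831582-60831831 (minus), chr8:8661243-8661492 (minus) and chr5:137349859-137350108 (plus), each 5′ to 3′.
Robo4: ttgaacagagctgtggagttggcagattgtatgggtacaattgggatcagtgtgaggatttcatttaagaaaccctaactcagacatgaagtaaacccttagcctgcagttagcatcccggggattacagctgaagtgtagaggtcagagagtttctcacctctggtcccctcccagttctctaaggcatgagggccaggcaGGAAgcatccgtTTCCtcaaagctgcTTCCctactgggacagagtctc
Unc5b: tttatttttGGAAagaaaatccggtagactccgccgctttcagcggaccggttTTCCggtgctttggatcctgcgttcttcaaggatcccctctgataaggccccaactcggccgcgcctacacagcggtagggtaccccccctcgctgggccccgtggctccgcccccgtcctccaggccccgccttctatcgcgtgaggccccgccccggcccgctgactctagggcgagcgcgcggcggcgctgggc
Efnb2: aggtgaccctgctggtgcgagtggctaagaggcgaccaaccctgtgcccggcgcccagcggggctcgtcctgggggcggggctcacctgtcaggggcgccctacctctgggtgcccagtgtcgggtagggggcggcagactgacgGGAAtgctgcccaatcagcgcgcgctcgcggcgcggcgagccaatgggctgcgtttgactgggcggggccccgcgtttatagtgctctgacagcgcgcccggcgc
Ephb4: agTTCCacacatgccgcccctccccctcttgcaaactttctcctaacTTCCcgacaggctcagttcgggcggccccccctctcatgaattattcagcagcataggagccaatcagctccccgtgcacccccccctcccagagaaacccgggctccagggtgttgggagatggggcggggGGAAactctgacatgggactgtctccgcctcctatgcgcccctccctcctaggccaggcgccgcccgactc

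The Robo4 window held 49.6% G and C and 2 CpG sites, an observed over expected CpG ratio of 0.131. The Unc5b window held 66.8% and 27 sites (ratio 0.987), that of Efnb2 72.0% and 27 sites (0.844) and that of Ephb4 64.0% and 12 sites (0.5). Over 32841 RefSeq promoter windows of this length the medians were 52.4%, 6 sites and 0.374, and 19.4% of windows had a lower CpG ratio than Robo4. The ETS core GGAA, searched on both strands, matched 3 times in Robo4, 2 times in Unc5b, once in Efnb2 and 3 times in Ephb4. It is in 93.5% of all windows, so its presence sets none of them apart. The GC box GGGCGG matched 2, 3 and 4 times in Unc5b, Efnb2 and Ephb4 and was not found in Robo4, and 32.7% of all windows hold it. The SOX core ACAAT matched 2 times in Robo4 and in none of the others (27.7% of windows). The RBPJ core TGGGAA (21.6%; it contains the ETS core) and the hypoxia response core ACGTG (16.6%) matched in none of the 4. These matches describe letters in a short window and show no binding.

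Robo4 was the member that set the vessel types apart. It was at 184 CPM in all cells of the BEC sort (181 to 188) and 30.2 CPM in all cells of the LEC sort (28.8 to 31.6), 6.11-fold higher in BEC (5.82 to 6.43). Between gated cells the levels were 188 and 29.5 CPM, a ratio of 6.39 (6.04 to 6.77). The intervals of the sorts lie far apart, with BEC high and LEC low.

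The low Robo4 signal of the LEC sort came mainly from LEC-gated cells. They held 75.7% of its UMIs, close to their part of all UMIs of the sort (45901516 of 59273049). The 82 BEC-gated cells of that sort held 15.4% of the Robo4 UMIs, with 1666730 UMIs of all genes. Those 82 cells had 165 CPM (146 to 186), close to the BEC sort and well above the LEC-gated cells around them. Melanocytic-gated cells of the LEC sort, which should lack the gene, had 0.974 CPM (0.316 to 2.27). Robo4 in LEC-gated cells was above that level. The BEC markers were also present in LEC-gated cells at 1093 CPM, and their part in this Robo4 signal was not tested.

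At equal depth Robo4 had a UMI in 51.3% of BEC-gated cells (49.5 to 53.0%) and 8.98% of LEC-gated cells (8.08 to 9.94%). In the 168 melanocytic-gated cells the share was 0%, with an upper limit of 2.17%. Before thinning the shares were 78.0%, 13.5% and 1.79%, at median depths of 19426, 10469 and 30853 UMIs. No cell held more than 1.34% of the Robo4 UMIs of its sort.

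Ephb4 had the opposite order. The venous receptor was at 29.0 CPM in all BEC (27.7 to 30.2) and 50.04 CPM in all LEC (48.3 to 51.9), 1.73-fold higher in LEC (1.63 to 1.83). Gated cells had 29.3 and 59.1 CPM, a ratio of 2.02 (1.90 to 2.14). At equal depth it had a UMI in 12.6% of BEC-gated and 18.9% of LEC-gated cells (17.7 to 20.2%), against 3.57% of melanocytic-gated cells. The 82 BEC-gated cells of the LEC sort had 18.6 CPM (12.6 to 26.4), on the side of the BEC sort and apart from the LEC-gated cells of their own sort.

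Efnb2 and Unc5b were shared by both vessel types at like levels. The arterial ligand Efnb2 was at 70.1 CPM in all BEC (68.2 to 72.1) and 54.8 CPM in all LEC (53.0 to 56.7), 1.28-fold higher in BEC (1.22 to 1.34). Gated cells had 71.2 and 61.0 CPM. The netrin receptor Unc5b was at 62.0 CPM in all BEC (60.2 to 63.9) and 68.5 CPM in all LEC (66.4 to 70.7), 1.10-fold higher in LEC (1.06 to 1.15), and at 62.2 and 80.8 CPM in gated cells. With size factors in place of CPM the Unc5b ratio in all cells turned to 0.977, so its direction between whole sorts depended on the scaling. At equal depth Efnb2 had a UMI in 24.0% of BEC-gated (22.5 to 25.6%) and 17.9% of LEC-gated cells (16.7 to 19.1%). For Unc5b the shares were 21.2% (19.8 to 22.7%) and 20.8% (19.5 to 22.1%), with overlapping intervals. Melanocytic-gated cells had 7.79 CPM of Efnb2, 7.79 CPM of Ephb4 and 3.50 CPM of Unc5b.

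**Figure D1:**
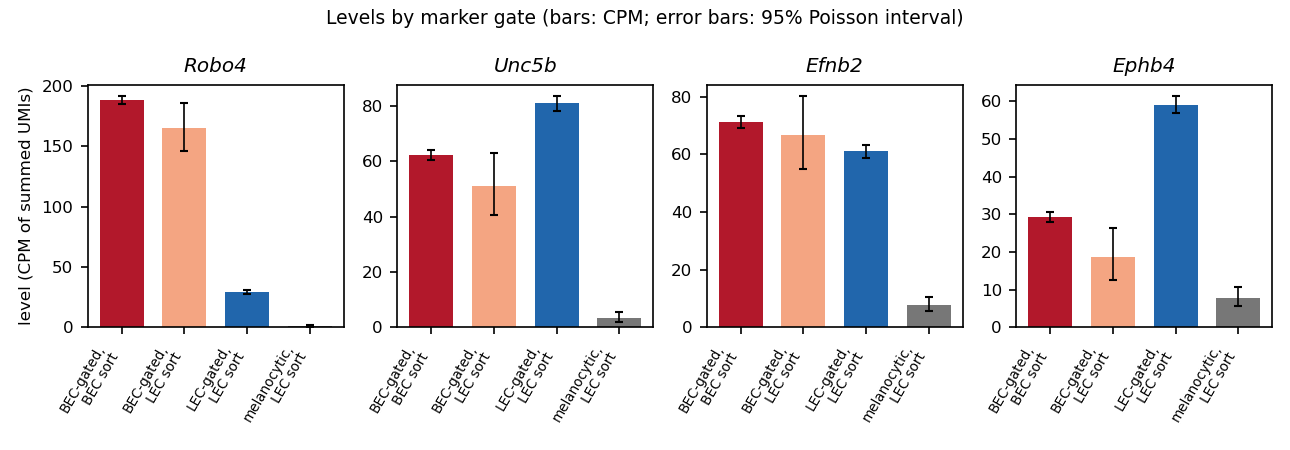
Level in CPM of each gene (bars, with 95% Poisson intervals) in BEC-gated cells of the BEC sort, BEC-gated and LEC-gated cells of the LEC sort and melanocytic-gated cells of the LEC sort; each vertical axis starts at 0. Robo4 is high in BEC-gated cells of either sort (188 and 165 CPM), Ephb4 is highest in LEC-gated cells (59.1 CPM), and melanocytic-gated cells are low for all 4 genes.

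In all cells 1 of the 4 genes, Robo4, was at least 2-fold higher in BEC, and 8.76% of 8307 genes at 10 CPM or more were. None was at least 2-fold higher in LEC, where 11.7% of genes were. In gated cells Robo4 was again at least 2-fold higher in BEC (9.7% of 8259 genes) and Ephb4 was just past 2-fold in LEC (11.6% of genes). Counts this small cannot be set apart from those shares.

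Within each sort the gated cells were divided by markers of vessel states. A cell joined the subset with the highest mean marker z score if that score was above 0.5 and at least 0.25 above the next. The BEC subsets were arterial (Gja5, Gja4, Bmx, Fbln5, Mgp and Aqp7; 139 cells), venous (Ackr1, Selp, Sele and Vwf; 255), tip (Apln, Tnfrsf9, Kit, Cxcr4 and Pgf; 308), Npr3 (Npr3, Vegfc and Dkk2; 435), Aplnr (Aplnr and Ramp3; 515) and cycling (189). The LEC subsets were Cd24a (Cd24a and Scn3a; 508 cells), Tppp3 (Tppp3 and Igfbp5; 552), hypoxic (Npy, Ndufa4l2, Pgf and Egln3; 326), Lsr (Lsr, Postn and Foxp2; 332), Cd74 (Cd74, H2-Aa, H2-Ab1 and Ccl2; 202), valve (Foxc2, Cldn11, Itga9 and Gja4; 258) and cycling (156). The cycling markers were Mki67, Top2a, Birc5, Ube2c, Cdk1 and Ccnb1. The remaining 1305 BEC-gated and 1419 LEC-gated cells joined none, of which 237 and 405 passed the score and missed the margin. The subsets are ranges of a score and not cell types. For each gene the highest and lowest subsets were picked from the same levels, and the intervals of their ratios do not allow for that choice.

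Genes outside the gates, picked after the data had been seen, bear on the arterial, venous, tip and hypoxic names. No such gene was looked at for the valve name. The arterial transcription factor Sox17 was at 423 CPM in arterial cells and at 115 to 191 CPM in the other BEC subsets. The venous factor Nr2f2 was at 132 CPM in venous cells and at 11.8 to 33.5 CPM in the other BEC subsets. The Notch target Hey1 was as high in Npr3 cells (319 CPM) as in arterial cells (301 CPM), and at 22.4 CPM in venous cells. The glucose transporter Slc2a1, a hypoxia target, was at 363 CPM in hypoxic LEC and at 10.4 to 39.4 CPM in the other LEC subsets. Sema3g was highest in arterial cells (75.6 CPM) and Vegfa in hypoxic LEC (49.3 CPM). For the tip name the genes were mixed. Among BEC subsets Slc2a1 (152 CPM) and Adm (696 CPM) were highest in tip cells. Dll4 was higher in Npr3 cells (448 CPM) than in tip (304 CPM) or arterial cells (284 CPM). Ndrg1 was higher in venous (350 CPM) than in tip cells (213 CPM), and highest in hypoxic LEC (973 CPM).

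Unc5b varied most among blood endothelial subsets. It was at 136 CPM in Npr3 cells (129 to 144), 103 CPM in arterial cells (90.8 to 117) and 89.5 CPM in tip cells (82.8 to 96.6). Aplnr cells had 30.4 CPM (27.2 to 33.8), cycling cells 24.6 CPM (20.8 to 28.9) and venous cells 9.81 CPM (7.26 to 12.97). The 3 high subsets did not overlap the 3 low ones, and only arterial and tip cells, neighbours in the order, had a ratio whose interval reached 1. With another thinning seed for the gates arterial cells took the place of Npr3 cells as the highest, so the order of these 2 subsets was not stable.

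The ratio of Npr3 over venous cells was 13.9 (10.4 to 18.9) for Unc5b. With a margin of 0.5 between subset scores it was 32.5. At equal depth 41.8% of Npr3 cells had an Unc5b UMI, against 3.92% of venous cells.

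Efnb2 shared the upper end of this order but not the tip cells. It was at 139 CPM in Npr3 cells (131 to 147) and 131 CPM in arterial cells (117 to 147), a ratio of 1.06 whose interval held 1. Aplnr cells had 62.2 CPM, tip cells 53.2 CPM (48.1 to 58.7), cycling cells 31.6 CPM and venous cells 26.4 CPM (22.1 to 31.3). Npr3 cells were 5.26-fold higher than venous cells (4.39 to 6.34). Tip cells, which were above the mean of the gated BEC for Unc5b, were below it for Efnb2.

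Ephb4 was highest in venous cells, at 52.4 CPM (46.3 to 59.2). Arterial cells had 45.7 CPM (37.5 to 55.3) and did not differ from venous cells beyond counting error (ratio 1.15, 0.912 to 1.45). Aplnr cells had 33.8 CPM, Npr3 cells 31.8 CPM and cycling cells 23.8 CPM. Tip cells had 11.2 CPM (8.87 to 13.9), 4.70-fold below venous cells (3.65 to 6.10). That ratio was 3.0003 when subsets were gated by at least 2 detected markers.

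The receptor was therefore low in tip cells rather than in arterial cells, while its ligand was low in venous and cycling cells. Ephb4 made up 66.5% of the UMIs of both genes in venous cells (61.6 to 71.1%), 42.9% in cycling cells and 35.2% in Aplnr cells. It made up 25.8% in arterial cells (21.7 to 30.3%), 18.6% in Npr3 cells and 17.3% in tip cells (14.03 to 21.1%). The venous interval did not overlap that of any other BEC subset. A share of UMIs between genes depends on how each is captured, so it is compared between subsets only.

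Robo4 was the most even member in blood endothelium. It was at 238 CPM in Npr3 cells (228 to 249) and 227 CPM in tip cells (216 to 238), which did not differ beyond counting error. Aplnr cells had 182 CPM, venous cells 140 CPM, cycling cells 139 CPM and arterial cells 132 CPM (118 to 148), and the last 3 did not differ as neighbours. Npr3 over arterial cells gave 1.81 (1.60 to 2.04). With cells thinned to equal depth tip cells were highest and cycling cells lowest. The lowest BEC subset for Robo4 was still above the highest LEC subset.

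**Figure D2:**
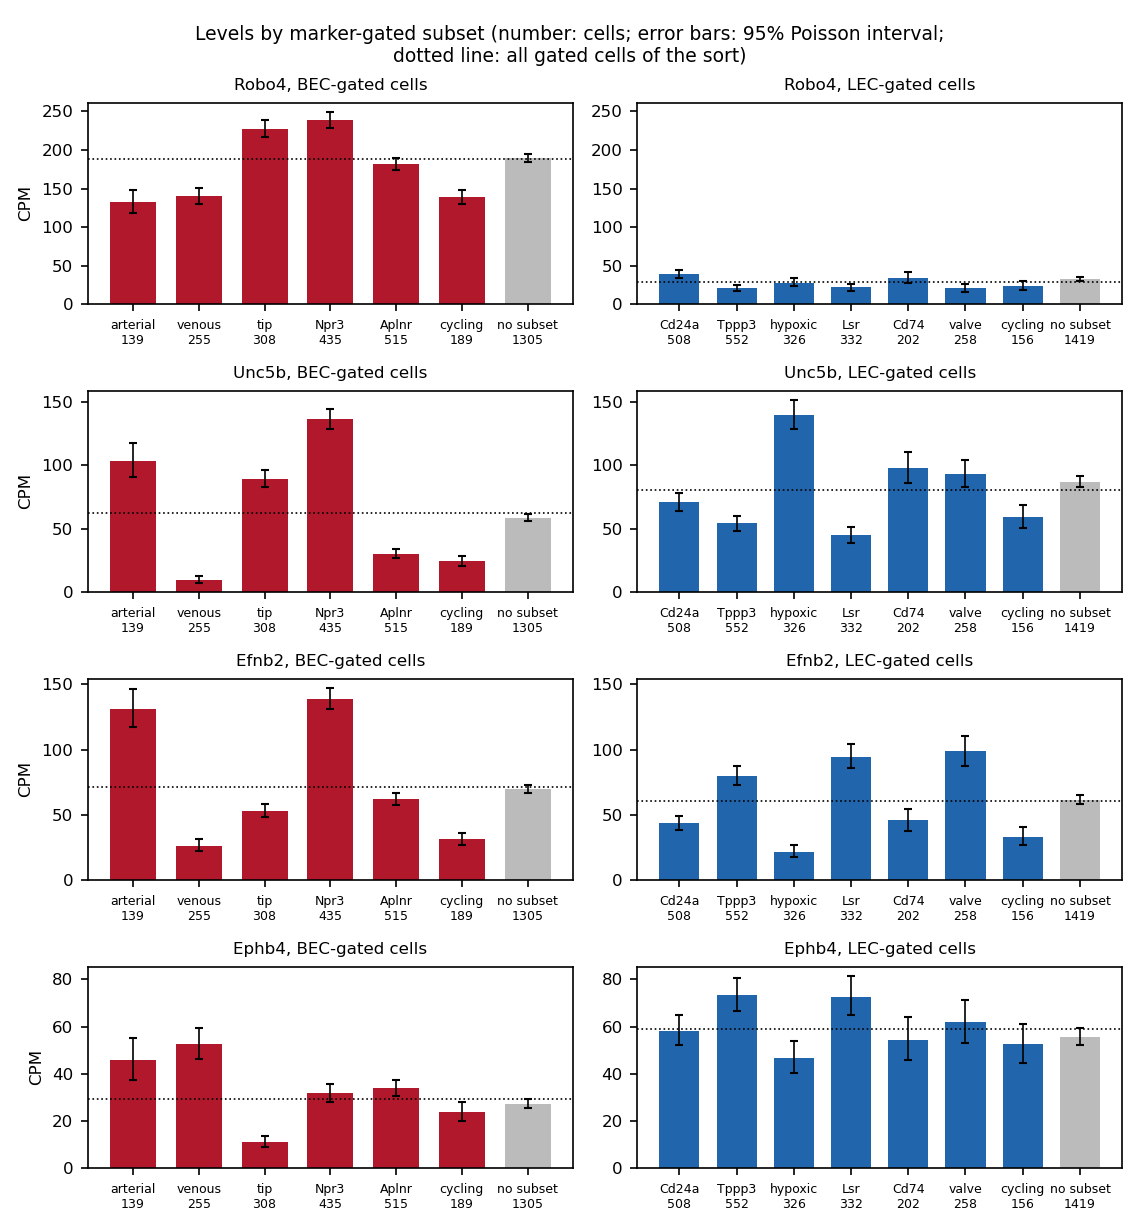
Level in CPM of each gene (rows) by marker-gated subset of BEC-gated (left) and LEC-gated (right) cells, with 95% Poisson intervals, the number of cells under each bar, cells of no subset in gray and the level of all gated cells as a dotted line. Both panels of a row share an axis from 0. Among BEC subsets Unc5b and Efnb2 are lowest in venous cells (9.81 and 26.4 CPM), and among LEC subsets hypoxic cells are highest for Unc5b and lowest for Efnb2 (139.6 and 22.0 CPM).

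In lymphatic endothelium Unc5b was highest in hypoxic cells, at 139.6 CPM (128 to 151). Cd74 cells had 97.5 CPM (85.9 to 110) and valve cells 93.0 CPM (82.6 to 105), which did not differ as neighbours. Cd24a cells had 70.8 CPM, cycling cells 59.4 CPM, Tppp3 cells 54.2 CPM and Lsr cells 44.8 CPM (38.6 to 51.7). Hypoxic over Lsr cells gave 3.11 (2.64 to 3.69), and with levels summed over thinned cells cycling rather than Lsr cells were lowest. At equal depth 35.6% of hypoxic and 13.6% of Lsr cells had an Unc5b UMI.

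Efnb2 had the opposite order in hypoxic, Lsr and Tppp3 cells, while valve cells were high in both genes. It was at 98.6 CPM in valve cells (87.8 to 110) and 94.6 CPM in Lsr cells (85.5 to 104), which did not differ beyond counting error, and at 80.2 CPM in Tppp3 cells. Cd74 cells had 45.9 CPM, Cd24a cells 43.8 CPM, cycling cells 33.4 CPM and hypoxic cells 22.0 CPM (17.8 to 27.0). Valve over hypoxic cells gave 4.48 (3.53 to 5.72). The hypoxic subset, highest for Unc5b, was thus lowest for Efnb2, except that cycling cells were lowest when subsets were gated by at least 2 detected markers. Lsr rather than valve cells were the highest under 4 of the 7 alternatives.

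Ephb4 and Robo4 varied little among LEC subsets. Ephb4 lay between 73.3 CPM in Tppp3 cells (66.6 to 80.5) and 46.7 CPM in hypoxic cells (40.4 to 53.7), a ratio of 1.57 (1.32 to 1.87). Robo4 lay between 39.3 CPM in Cd24a cells (34.4 to 44.9) and 20.9 CPM in valve cells (16.1 to 26.7), a ratio of 1.88 (1.42 to 2.53). The lowest subset for Robo4 and the highest for Ephb4 changed with the settings, and at equal depth cycling cells were the highest for Ephb4. Cd24a cells stayed the highest for Robo4 under every alternative. Hypoxic cells stayed the lowest for Ephb4, except that cycling cells were lowest when subsets were gated by at least 2 detected markers. For both genes each pair of neighbours in the order had an interval that held 1. As a share of the UMIs of both genes, Ephb4 ranged from 38.5% in valve cells (34.2 to 43.0%) to 67.9% in hypoxic cells (62.2 to 73.3%). Between those ends Efnb2 differed 4.48-fold and Ephb4 by less than its 1.57-fold range.

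Cycling cells of the BEC sort had lower levels of all 4 genes than the other gated cells, and those of the LEC sort had lower Efnb2 and Unc5b. In BEC the ratio of cycling over other gated cells was 0.374 for Unc5b (0.315 to 0.441), 0.421 for Efnb2, 0.719 for Robo4 and 0.797 for Ephb4 (0.667 to 0.945). In LEC it was 0.530 for Efnb2 (0.430 to 0.648) and 0.721 for Unc5b, while the intervals for Robo4 (0.805, 0.626 to 1.02) and Ephb4 (0.880, 0.744 to 1.03) held 1. Cycling cells were the deepest subset, with median depths of 29599 UMIs in BEC and 16267 in LEC. At equal depth, a UMI of Robo4, Unc5b, Efnb2 and Ephb4 was in 40.7%, 7.94%, 13.8% and 7.94% of cycling BEC, each below the share in all BEC-gated cells. In cycling LEC the shares were 7.05%, 16.03%, 11.5% and 24.4%, and that of Ephb4 (17.9 to 31.9%) was the highest of the 7 LEC subsets, above the 18.9% of all LEC-gated cells. For Ephb4 in cycling LEC the ratio and the share pointed different ways. The interval of the ratio held 1 and that of the share held 18.9%, so neither gives a direction.

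**Figure D3:**
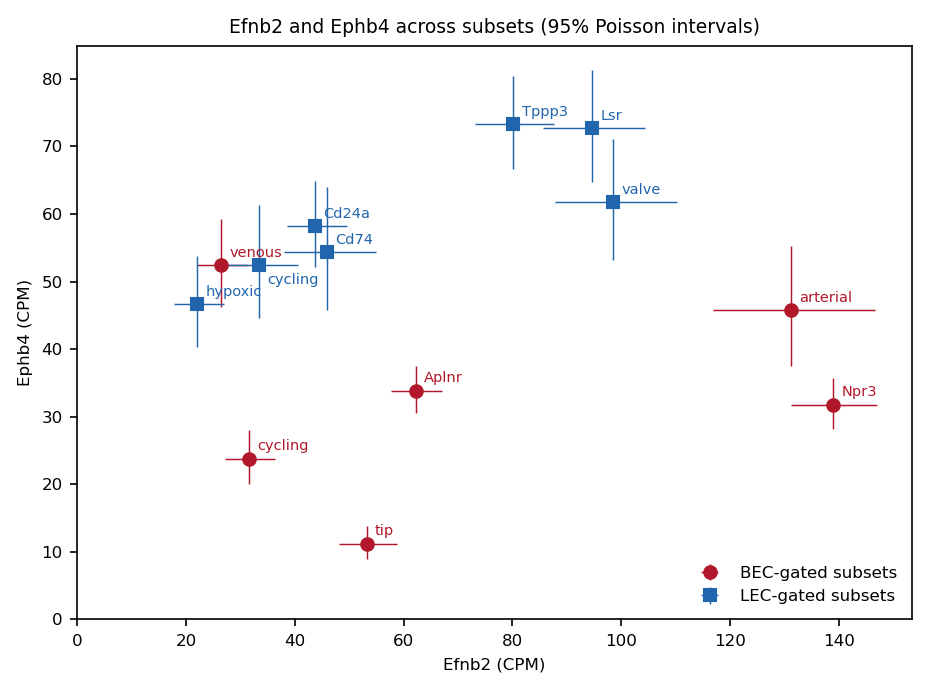
Level of Efnb2 (horizontal) against Ephb4 (vertical), both in CPM on linear axes from 0, with 95% Poisson intervals, for 6 BEC-gated subsets (red circles) and 7 LEC-gated subsets (blue squares). Arterial and Npr3 cells lie far to the right, venous cells at high Ephb4 and low Efnb2 (52.4 and 26.4 CPM) beside hypoxic and cycling LEC, and tip cells at the bottom (11.2 CPM of Ephb4).

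In BEC 3 of the 4 genes differed at least 2-fold between highest and lowest subset, and 38.3% of 7299 genes at 10 CPM or more did. The same 3 (Unc5b, Efnb2 and Ephb4) differed at least 4-fold, as did 10.7% of genes. In LEC 2 of the 4 genes (Unc5b and Efnb2) passed 2-fold, as did 44.3% of 7655 genes, and Efnb2 passed 4-fold, as did 10.1%.

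Ephb4 was seen about as often in cells with its ligand Efnb2 as in cells without it. At equal depth Ephb4 had a UMI in 13.9% of BEC-gated cells with an Efnb2 UMI (11.5 to 16.6%, 105 of 756 cells) and in 12.1% of those without (10.9 to 13.5%). In LEC-gated cells the shares were 19.7% (16.7 to 22.9%) and 18.7% (17.4 to 20.1%). In both sorts the intervals overlapped.

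Unc5b went with Efnb2 in blood endothelium. Efnb2 had a UMI in 36.9% of BEC-gated cells with an Unc5b UMI (33.2 to 40.7%) and in 20.6% of those without (19.0 to 22.2%). Among LEC-gated cells the shares were 17.1% and 18.1%. Both genes were also seen more often in BEC with Robo4 than in BEC without. Efnb2 had a UMI in 28.0% of BEC-gated cells with Robo4 (25.8 to 30.3%) and 19.8% of those without (17.9 to 21.9%). Unc5b, whose protein can bind Robo4, had a UMI in 24.0% of BEC-gated cells with Robo4 (21.9 to 26.2%) and 18.3% of those without (16.4 to 20.3%). In LEC-gated cells the shares for Unc5b were 23.1% (18.7 to 28.0%) and 20.5% (19.2 to 21.9%), with overlapping intervals. Cells of a sort share libraries and mice, so these shares are a description.

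Across the 13 subsets of both sorts, each gene's profile of log2(CPM + 1) was compared with 7727 genes at 20 CPM or more in at least 1 subset. Subsets of a sort share libraries, so the correlations describe likeness alone. Closest to Robo4 were Hlx (Pearson r 0.988), Hcls1 (0.985), Nrros (0.985), Col15a1 (0.979) and Ccdc85b (0.977), a pattern carried by the gap between the sorts. With each sort centred on its own mean the genes closest to it included Tead1 (0.910), Tcf4 (0.860), Angpt2 (0.855) and Alg9 (0.854). For Unc5b the centred list was Lgals3bp (0.932), the Notch ligand gene Dll4 (0.912), Rtn4 (0.893), Dbn1 (0.890) and Cd200 (0.866), and the uncentred list began with Lgals3bp (0.905) and Rtn4 (0.904). For Efnb2 it was the thromboxane receptor gene Tbxa2r (0.907), Oaz2 (0.906), Mansc1 (0.905), Tsc22d1 (0.899) and the transcription factor gene Sox18 (0.898), and 3 of these, Tbxa2r, Mansc1 and Sox18, were also in the uncentred list. For Ephb4 it was Lipe (0.937), the Axl ligand gene Gas6 (0.922), the integrin gene Itgb4 (0.919), Cthrc1 (0.901) and Pkp4 (0.886), with Gas6 (0.953) and Itgb4 (0.929) also in the uncentred list. The 4 genes were less like each other, with centred r between -0.507 (Robo4 and Ephb4) and 0.471 (Robo4 and Unc5b).

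Of 62 other genes in the Slit, netrin and ephrin pathways, 61 were in the matrix and 22 reached 10 CPM in a sort. In all cells LEC exceeded BEC at least 2-fold for 8 of the 22 (11.7% of all 8307 genes at that level), and BEC exceeded LEC for 3 (8.76%). The median log2 ratio of LEC over BEC was 0.14 (0.10 over all genes at that level). Of the netrin list 6 genes reached 10 CPM, and 5 of them did so in the LEC sort alone. Their direction follows from that minimum, and their count is a description. Efna5 and Pick1 also reached it in the LEC sort alone, and Efnb1 and Srgap1 in the BEC sort alone. For these genes too the direction follows from the minimum, so the counts of 8 and 3 are a description. The netrin ligand gene Ntn1 had 0.968 CPM in the BEC sort against 101 CPM in LEC, 105-fold higher (82.6 to 135). The netrin and repulsive guidance receptor Neo1 was at 0.561 and 24.7 CPM, 44.1-fold higher (32.2 to 62.0). The Unc5-binding membrane proteins Flrt2 and Flrt3 were 11.5-fold and 41.0-fold higher, and the kinase gene Dapk1, whose product acts downstream of Unc5 receptors, 18.2-fold higher. Levels in gated cells lay further apart, at 0.505 and 123 CPM for Ntn1, 0.390 and 27.8 CPM for Neo1, 0.231 and 16.2 CPM for Flrt3 and 0.519 and 15.2 CPM for Dapk1, so these folds depend on which cells of a sort are counted. LEC thus carried both a netrin gene and the receptor Unc5b, while BEC carried Unc5b with almost no UMI of Ntn1.

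Slit ligands and the other Roundabout receptors were scarce. Of the 10 genes of that list 2 reached 10 CPM in a sort, and neither was a Slit ligand or a Roundabout receptor. Of the cytoplasmic partners of Roundabout receptors, Srgap1 was 2.69-fold higher in BEC (2.43 to 2.97) and Srgap2 was at 28.0 and 26.2 CPM.

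Among ephrins, Efna1 had 346 CPM in the BEC sort against 121 CPM in LEC, 2.86-fold higher in BEC (2.79 to 2.94), and Efnb1 was 3.41-fold higher in BEC (3.06 to 3.81). Efna5 was 16.1-fold higher in LEC (12.4 to 21.3). Of 13 other Eph receptors only Epha2 reached 10 CPM, with 18.8 CPM in the BEC sort and 14.5 CPM in LEC. Across subsets Epha2 ranged from 12.0 CPM in arterial to 23.1 CPM in Npr3 BEC and from 9.21 CPM in Tppp3 to 24.5 CPM in Cd74 LEC. Of 10 adaptors and effectors at 10 CPM or more, Vav3 (2.99-fold) and Pick1 (2.06-fold) were higher in LEC and 8 were within 2-fold, such as the Ephb4 effector Rasa1 at 46.7 and 47.0 CPM.

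**Figure D4:**
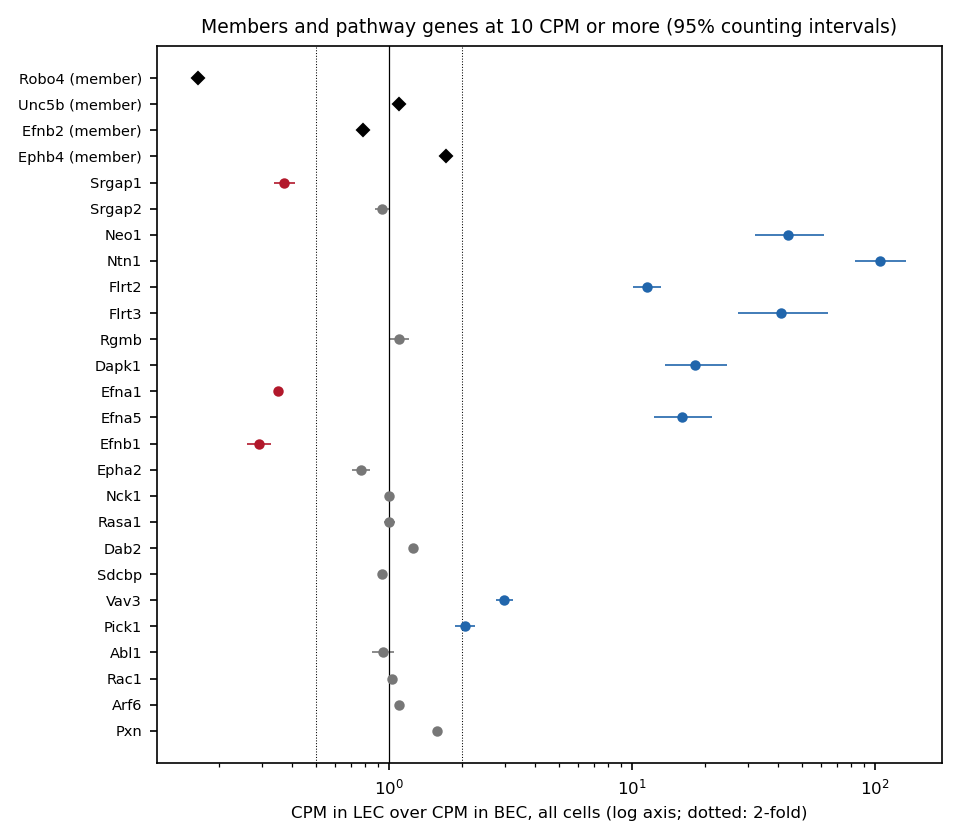
Ratio of CPM in LEC over BEC in all cells (horizontal, log axis, with 95% counting intervals; dotted lines at 2-fold) for the 4 members (black diamonds) and the 22 pathway genes at 10 CPM or more (circles; blue higher in LEC, red higher in BEC, gray within 2-fold). Robo4 lies farthest to the left and Ntn1 farthest to the right (105-fold).

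Within lymphatic endothelium the netrin gene Ntn1 and the receptor Unc5b were highest in different subsets. Ntn1 was at 186 CPM in Tppp3 cells, 156 CPM in Lsr cells and 130 CPM in valve cells, and at 109 CPM in hypoxic cells, where Unc5b was highest. Neo1 was at 68.5 CPM in Cd24a and 41.7 CPM in hypoxic cells but at 5.86 CPM in Tppp3 and 4.53 CPM in Lsr cells, the subsets that were also lowest for Unc5b. Flrt2 was at 14.1 CPM in hypoxic cells and at 44.1 to 60.1 CPM in the other 6 LEC subsets. In blood endothelium Efna1 followed Efnb2, with 631 CPM in arterial, 536 CPM in Npr3 and 174 CPM in venous cells, whereas Efnb1 was at 42.7 CPM in arterial, 38.2 CPM in Aplnr and 7.48 CPM in tip cells.

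**Figure D5:**
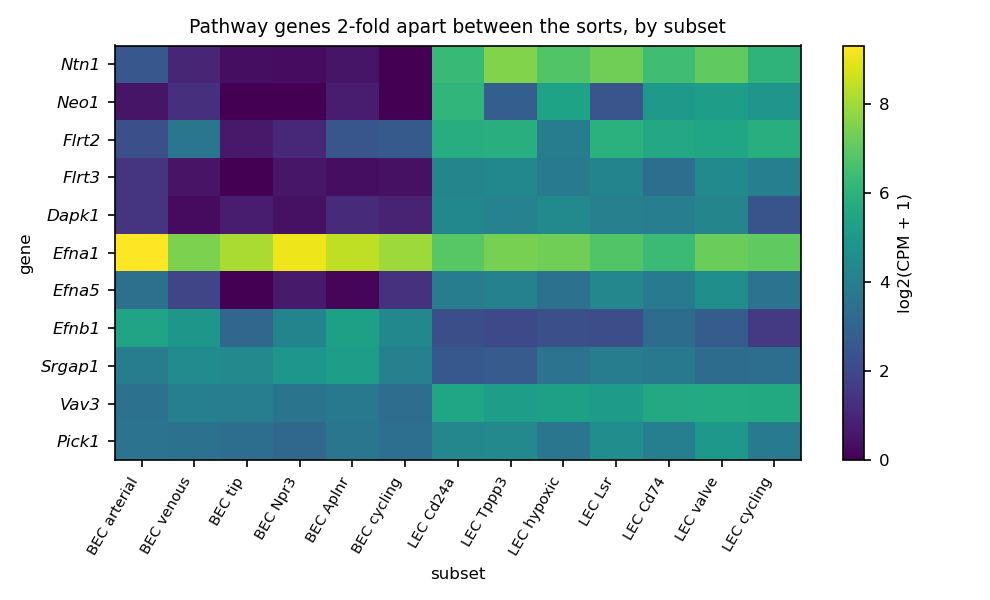
Level as log2(CPM + 1) (color) of the 11 pathway genes at least 2-fold apart between the sorts (rows) in the 13 subsets (columns). Ntn1, Neo1, Flrt2, Flrt3 and Dapk1 are bright in LEC columns, with Neo1 dark in Tppp3 and Lsr cells (5.86 and 4.53 CPM), and Efna1 is brightest in arterial and Npr3 BEC.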

How the data were processed

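Deposited values were raw UMI counts per gene symbol and cell, in 1 matrix by the authors, with 28692 genes and 7635 cells. Cell Ranger 2.1.1 and the build mm10 were used per the submitters' processing notes, and how the authors filtered cells was not given in the sources used here. Each sort was 1 sample, since the columns name no library. Here UMIs were summed over cells and scaled to CPM, so no count model was fitted and no p-value is given. All intervals are at the 95% level (exact Poisson for CPM, exact conditional binomial for ratios, Clopper-Pearson for shares). Depth ranged from 6968 to 99171 UMIs per cell in BEC and from 5288 to 49210 in LEC, and 1 UMI was worth 0.0140 and 0.0169 CPM in the summed sorts.

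Gates used cells thinned to 5000 UMIs. Type gates took the list with the largest share of markers detected (at least 3 markers, 2 for leukocytes). Subset scores were means of z scores of log2(UMI + 1), limited to 5. No cells were filtered out and no doublet caller was run. Leaving out the 10% of cells with most UMIs stood in for one in the ratios between all cells of the sorts. It was not done for subset levels or same-cell shares. Members, gates and pathway lists were chosen with earlier results of these data known, and the markers outside the gates and the motifs were chosen after the values. Named genes are the 4 members, pathway genes at 10 CPM or more in a sort, and the 5 genes most like each member in profile. The result of 1 of these is not reported here. The alternatives were other scalings, gates, thinning and sets of cells. Python 3.11.15, numpy 2.4.6, scipy 1.17.1 and matplotlib 3.10.9 were used, and the scripts were tested on simulated data.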

Additional observations from a re-analysis of the deposited data

Results flagged for a closer look

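Cells that passed no type gate enter none of the comparisons between gated cells, and all 4 genes had UMIs there. For scale, 3 UMIs were worth 1.98 CPM in the 69 such cells of the BEC sort. In the 399 such cells of the LEC sort they were worth 0.466 CPM. The cells of no type gate in the BEC sort had 55.5 CPM of Robo4, 68.0 CPM of Unc5b, 37.0 CPM of Efnb2 and 17.2 CPM of Ephb4. Robo4 was below the 188 CPM of BEC-gated cells there, and these cells carried markers of several types, with 4188 CPM of the BEC list, 5071 CPM of the LEC list and 5033 CPM of the melanocytic list. Those of the LEC sort had 24.1 CPM of Robo4, 38.1 CPM of Unc5b, 46.5 CPM of Efnb2 and 28.0 CPM of Ephb4, each below the LEC-gated cells. The part of mixed droplets in these values was not tested.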

How the results depend on the processing

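Of 132 values recomputed under an alternative, 93 stayed within the counting interval or within 1.5 times of a count, 38 moved and 1 changed direction; the cause was not tested. Size factors, which shift log2 ratios of LEC over BEC by -0.18, gave ratios of 0.145 for Robo4, 0.977 for Unc5b (turned), 0.691 for Efnb2 and 1.53 for Ephb4, against 0.164, 1.10, 0.782 and 1.73. Thinned cells gave 1.01 for Unc5b, 0.724 for Efnb2 and 1.62 for Ephb4. Gated cells gave 1.30, 0.856 and 2.02. Without non-endothelial cells the ratios were 0.178 for Robo4, 1.20 for Unc5b, 0.843 for Efnb2 and 1.86 for Ephb4. Unc5b was at 1.054 without cycling cells. Gates of at least 2 detected markers gave highest over lowest ratios in BEC of 1.53 for Robo4, 10.4 for Unc5b and 3.0003 for Ephb4, and in LEC of 1.39 for Robo4 and 3.78 for Unc5b. A margin of 0.5 gave 32.5 for Unc5b and 7.37 for Efnb2 in BEC, and thinned cells gave 5.99 for Efnb2 in LEC. The highest subset was the one reported in 45 of 56 recomputed profiles and the lowest in 46.

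Without thinning, the shares of cells with a UMI of Robo4, Unc5b, Efnb2 and Ephb4 were 78.0%, 35.4%, 45.0% and 26.5% in BEC and 13.5%, 28.2%, 24.4% and 27.6% in LEC. Another thinning seed gave 19.7% for Unc5b and 10.96% for Ephb4 in BEC, and 10.5% for Ephb4 in BEC without Efnb2. All LEC-sort cells gave 19.1% for Unc5b and 17.4% for Ephb4. A minimum of 50 CPM left 1 pathway gene in each direction, and one of 2 CPM gave 15 in LEC. Leaving out cells with shared barcodes and using another seed for same-cell shares were chosen after seeing the data, and the former changed no value beyond its interval. No paired analysis was possible because the columns carry no library number, and libraries could not be left out in turn for the same reason. Depth limits the smaller gates most, such as the 31 Ephb4 UMIs of the 82 BEC-gated cells in the LEC sort.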

Other observations

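Most cells showed few of the 4 genes at a time. At 5000 UMIs per cell, 912 of 3146 BEC-gated cells had a UMI of none, 1292 of 1 gene, 706 of 2, 217 of 3 and 19 of all 4. Among 3753 LEC-gated cells the numbers were 1810, 1447, 441, 53 and 2. The most UMIs in a thinned cell were 10 for Robo4, 9 for Unc5b, 10 for Efnb2 and 5 for Ephb4 in BEC, and 7, 10, 10 and 7 in LEC.

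Ntn1 was scarce in each BEC subset, with at most 4.70 CPM in arterial cells (2.35 to 8.41, 11 UMIs). Venous cells, lowest for Unc5b, had 11.6 CPM of Flrt2 (8.81 to 15.0), and the other BEC subsets had 0.544 to 5.15 CPM. The venous factor gene Nr2f2 was at 163 to 215 CPM in all 7 LEC subsets, above its 132 CPM in venous BEC, and Sox17 was at or below 1.94 CPM there.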
